A study of Mus musculus with 12 samples.

Results

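Cholesterol synthesis and its control were followed through 34 genes listed by symbol: 19 enzymes that run from acetyl-CoA to the last steps of sterol synthesis, 5 genes of sterol regulatory element-binding protein (SREBP) control, 5 of the liver X receptor (LXR) and sterol efflux, and 5 of intracellular sterol traffic and storage. The rule takes genes by pathway and uses no measured value, although earlier results of these data were known when the list was chosen. Of the 34, 33 had a row among the 24770 gene symbols of the expression table, and 32 were among the 12311 genes that reached 1 FPKM (a fragment count divided by gene length and sequencing yield) in at least 3 of the 12 libraries. Nr1h3 is not analysed here, and Abcg1, an efflux transporter, lay between 0.01 and 0.1 FPKM in every library and was not tested. RNA came from GC-2, a cultured mouse cell line of wild-type genotype that its labels place among type B spermatogonia. Cells received DMSO, the solvent, or MLN4924 at 1 µM and were kept for 24 h in normoxia or in hypoxia at 1% O2, which gave DMSO normoxia, DMSO hypoxia, MLN4924 normoxia and MLN4924 hypoxia, with 3 libraries in each group. All 4 groups were grown in DMEM with fetal bovine serum under 5% CO2. The series text calls the 3 libraries biological replicates of 1 line, so p-values measure the spread between cultures of that line. The cell type label carries a different number in each sample, from GC-2 up to GC-13, although the titles and the cell line field give GC-2 throughout. The germ cell markers Ddx4, Kit, Sohlh1 and Sycp3 stayed at or below 0.35 FPKM in every library, Gfra1 lay between 1.14 and 6.23 FPKM, Uchl1 lay between 10.77 and 22.36 FPKM, and the mesenchymal genes Col1a1, Col1a2 and Vim had lowest values of 365.46, 337.64 and 569.73 FPKM. Of the 10 spermatogonial and germ line markers, 6 were in the table and 2 of these, Gfra1 and Uchl1, passed 1 FPKM. Kit read 0 in 9 libraries, and Dazl, Stra8, Dmrt1 and Zbtb16 had no row. As a list the markers thus do not bear out the type B spermatogonial label, and the identity of the cells was not tested.

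Animal cells build cholesterol from acetyl-CoA through mevalonate and the isoprenoid units, join farnesyl units to squalene, close the ring to lanosterol and trim it to cholesterol. Several of the later steps, those of Sqle, Cyp51, Msmo1 and Sc5d, consume molecular oxygen. SREBP-2 (Srebf2) drives most of these enzyme genes, while SREBP-1 (Srebf1) leans towards fatty acid synthesis. SCAP carries SREBPs to the Golgi for cleavage, and the INSIG proteins hold the complex in the endoplasmic reticulum when sterols are plentiful. LXRs sense oxysterols and switch on efflux genes such as Abca1, the ubiquitin ligase gene Mylip and Srebf1 itself. MLN4924 (pevonedistat) inhibits the NEDD8-activating enzyme and so disables the cullin-RING ubiquitin ligases, which in many cells include those that degrade nuclear SREBPs and hypoxia-inducible factors.

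Promoters of 5 genes are printed, chosen as those of an early enzyme, genes with large falls or rises in the results, and the SREBP-induced brake Insig1: Hmgcs1 (chr13:119690101-119690350, plus strand), Idi1 (chr13:8885356-8885605, plus strand), Msmo1 (chr8:64733579-64733828, minus strand), Hsd17b7 (chr1:169969206-169969455, minus strand) and Insig1 (chr5:28071162-28071411, plus strand). Each is the 250 bases before the transcript start in RefSeq, build GRCm38.p6, written 5′ to 3′ on the gene's strand. Capitals mark TCACNCCA, the core of a sterol regulatory element, and CCAAT, the core of the NF-Y box, both searched on both strands, so that CCAAT on the other strand reads ATTGG.
Hmgcs1: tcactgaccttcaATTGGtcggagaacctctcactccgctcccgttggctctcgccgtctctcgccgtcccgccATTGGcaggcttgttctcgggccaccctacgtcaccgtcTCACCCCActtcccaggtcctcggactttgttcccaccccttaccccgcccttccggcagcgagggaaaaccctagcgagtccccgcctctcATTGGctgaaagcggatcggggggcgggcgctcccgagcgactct
Idi1: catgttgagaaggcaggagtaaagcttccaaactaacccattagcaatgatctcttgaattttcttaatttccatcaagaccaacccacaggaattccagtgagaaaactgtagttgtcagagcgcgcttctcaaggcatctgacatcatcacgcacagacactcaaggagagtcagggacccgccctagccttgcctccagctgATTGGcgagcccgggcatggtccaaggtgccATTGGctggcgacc
Msmo1: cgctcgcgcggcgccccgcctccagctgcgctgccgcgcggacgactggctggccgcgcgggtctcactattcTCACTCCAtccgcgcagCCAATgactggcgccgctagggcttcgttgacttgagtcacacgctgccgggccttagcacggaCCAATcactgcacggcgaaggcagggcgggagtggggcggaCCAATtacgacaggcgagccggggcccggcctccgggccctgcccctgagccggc
Hsd17b7: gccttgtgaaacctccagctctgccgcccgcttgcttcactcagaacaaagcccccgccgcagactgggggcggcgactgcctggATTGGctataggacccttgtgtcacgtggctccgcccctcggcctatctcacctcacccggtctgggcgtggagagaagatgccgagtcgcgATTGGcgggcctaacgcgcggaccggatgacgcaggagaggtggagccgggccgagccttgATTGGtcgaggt
Insig1: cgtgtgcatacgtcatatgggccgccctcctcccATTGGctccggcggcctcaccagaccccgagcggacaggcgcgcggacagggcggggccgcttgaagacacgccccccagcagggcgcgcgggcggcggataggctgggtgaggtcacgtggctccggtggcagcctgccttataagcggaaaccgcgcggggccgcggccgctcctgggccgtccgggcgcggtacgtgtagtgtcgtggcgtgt
Of the 34 genes, 28 were matched in the RefSeq promoter table, with 37 windows that run from 250 bases before to 50 after a start. Stard4, Sqle, Fdft1, Abcg1, Npc1 and Fdps had no entry. TCACNCCA was in 3 of the 37 windows, those of Hmgcs1 (bases -137 to -130), Msmo1 (-177 to -170) and Srebf2 (-162 to -155), against 4.36% of all 32851 windows. The longer form TCACNCCAC, which contains TCACNCCA, was in 1 of the 37, that of Hmgcs1, against 1.24% of all windows. CCAAT was in 24 of the 37 windows, from 23 genes, against 37.4% of all windows, with 3 copies each in the printed stretches of Hmgcs1, Msmo1 and Hsd17b7. ACGTG or GCGTG, the core of the hypoxia response element, which overlaps its own reverse where CACGTG occurs, was in 21 of the 37 windows, from 18 genes, against 43.8% of all windows. A match of letters describes a window and shows no binding.

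The libraries were alike in total except DMSO hypoxia replicate 1, which summed to 633597 FPKM against 530452 to 557779 in the other 11. Its mean Spearman correlation with the other libraries of its group was 0.926, and against them it read longer genes lower, with a rank correlation of -0.50 between exonic length and deviation over 12003 genes and -0.69 over the 32 tested genes of sterol metabolism. Npc1 (-1.19), Lss (-0.94) and Soat1 (-0.71) lay lowest in it on the log2 scale, and Idi1 (0.51) and Fdps (0.50) highest, relative to the mean of replicates 2 and 3. Correlations over genes are given as descriptions, since genes are not independent replicates. Counts are therefore given with and without this library. The summed fibroblast and peritubular markers also moved with the groups, from 1958.17 to 1966.51 FPKM in DMSO normoxia, 2529.53 to 2637.68 in DMSO hypoxia, 1647.11 to 1675.23 in MLN4924 normoxia and 2042.28 to 2096.98 in MLN4924 hypoxia, with 5 of 7 markers above 1 FPKM and Myh11 and Dcn near 0. The sums for other testis cell types were far lower and moved too, with 5 Sertoli markers summing to 12.77 to 15.55, 17.97 to 23.02, 6.46 to 9.75 and 9.83 to 13.56 FPKM in that group order, and 4 Leydig markers to 11.33 to 12.1, 2.84 to 6.08, 1.61 to 3.83 and 3.29 to 6.63. The 3 macrophage and leukocyte markers in the table summed to 1.8 to 2.27, 1.58 to 1.9, 2.01 to 2.24 and 3.65 to 4.18 FPKM, and the 6 germ line markers to 12.01 at the lowest and 25.88 at the highest. The part of these markers in the results below was not tested, and in bulk RNA fewer cells of a kind and less RNA per cell cannot be told apart.

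**Figure D1:**
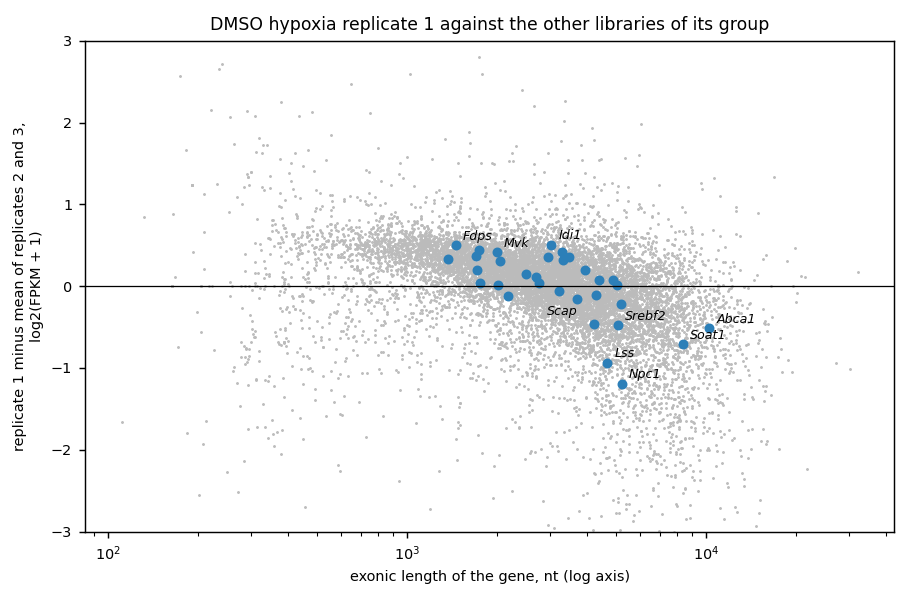
Deviation of DMSO hypoxia replicate 1 from the mean of the other libraries of its group, as a difference of log2(FPKM + 1), against exonic length in nt on a log axis. Grey points are tested genes with a known length (12003, of which 83 lie outside the axis) and blue points are the 32 tested genes of sterol metabolism; the blue points slope down from Fdps at 0.50 to Npc1 at -1.19.

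Under hypoxia a part of the synthesis enzymes fell, with and without MLN4924, and the rest did not pass the test. In DMSO, 8 of the 19 enzymes fell and 0 rose, and over the 32 tested genes 9 fell and 1 rose, where 19.4% of all tested genes fell and 13.8% rose (limma, adjusted p under 0.05). Under MLN4924, 9 of the 19 enzymes fell and 0 rose, and over all 32 genes 11 fell and 4 rose, against 16.5% and 11.7% of tested genes. The median change of the 19 enzymes was -0.21 in DMSO and -0.37 under MLN4924 on the log2(FPKM + 1) scale, against medians of -0.08 and -0.05 over all tested genes. The group means of these contrasts share no library, but each gene has 1 spread taken over all 12 libraries, so the calls are not independent. In both contrasts 6 enzymes fell, Mvd, Idi1, Fdft1, Sqle, Cyp51 and Hsd17b7. They made up 75% of the 8 and 66.7% of the 9, where over all tested genes 57.2% and 67.3% of the falling genes fell in the other contrast too. Every hypoxic library lay below every normoxic one for 13 of the 32 genes in DMSO, 11 of them enzymes, and above for 2, against 26.9% and 18.3% of tested genes. Under MLN4924 the groups were apart in this way for 19 genes that lay lower, 16 of them enzymes, and 5 that lay higher, against 30.7% and 22.6%. Without DMSO hypoxia replicate 1, 14 of the 32 genes fell and 1 rose in DMSO, and 16 fell and 5 rose under MLN4924. Of all tested genes 24.1% then fell and 14.8% rose in DMSO, and 24.9% fell and 17.9% rose under MLN4924. Cyp51, Hsd17b7, Mvd and Nsdhl fell in DMSO under all 18 alternative settings.

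With MLN4924 a part of the same enzymes rose at both oxygen levels. In normoxia, 9 of the 19 enzymes rose and 0 fell, and over the 32 genes 9 rose and 3 fell, against 9.33% and 10.7% of all tested genes. In hypoxia, 8 of the 19 enzymes rose and 1, Acat2, fell, and over the 32 genes 9 rose and 3 fell, against 12.2% and 13.3%. The median change of the 19 enzymes was 0.34 in normoxia and 0.30 in hypoxia, beside -0.03 and -0.01 over all tested genes. The group means of these contrasts share no library either, with the same shared spread behind both sets of calls. Rises in both were found for Mvd, Idi1, Sqle, Cyp51, Msmo1, Nsdhl and Hsd17b7, 77.8% of the 9 enzymes that rose in normoxia and 87.5% of the 8 in hypoxia, where the shares over all tested genes were 64.7% and 49.6%. In normoxia all MLN4924 libraries lay above all DMSO libraries for 18 of the 32 genes, 14 of them enzymes, and below for 6, against 22.2% and 26.2% of tested genes. In hypoxia they lay above for 11 genes, 9 of them enzymes, and below for 4, against 18.1% and 19.9%. Without DMSO hypoxia replicate 1, which enters the first contrast only through the shared spread, 14 of the 32 genes rose and 3 fell in normoxia. Of all tested genes 16.2% then rose and 18.3% fell. In hypoxia 11 of the 32 genes rose and 3 fell, against 16.9% and 15.7% of all tested genes.

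**Figure D2:**
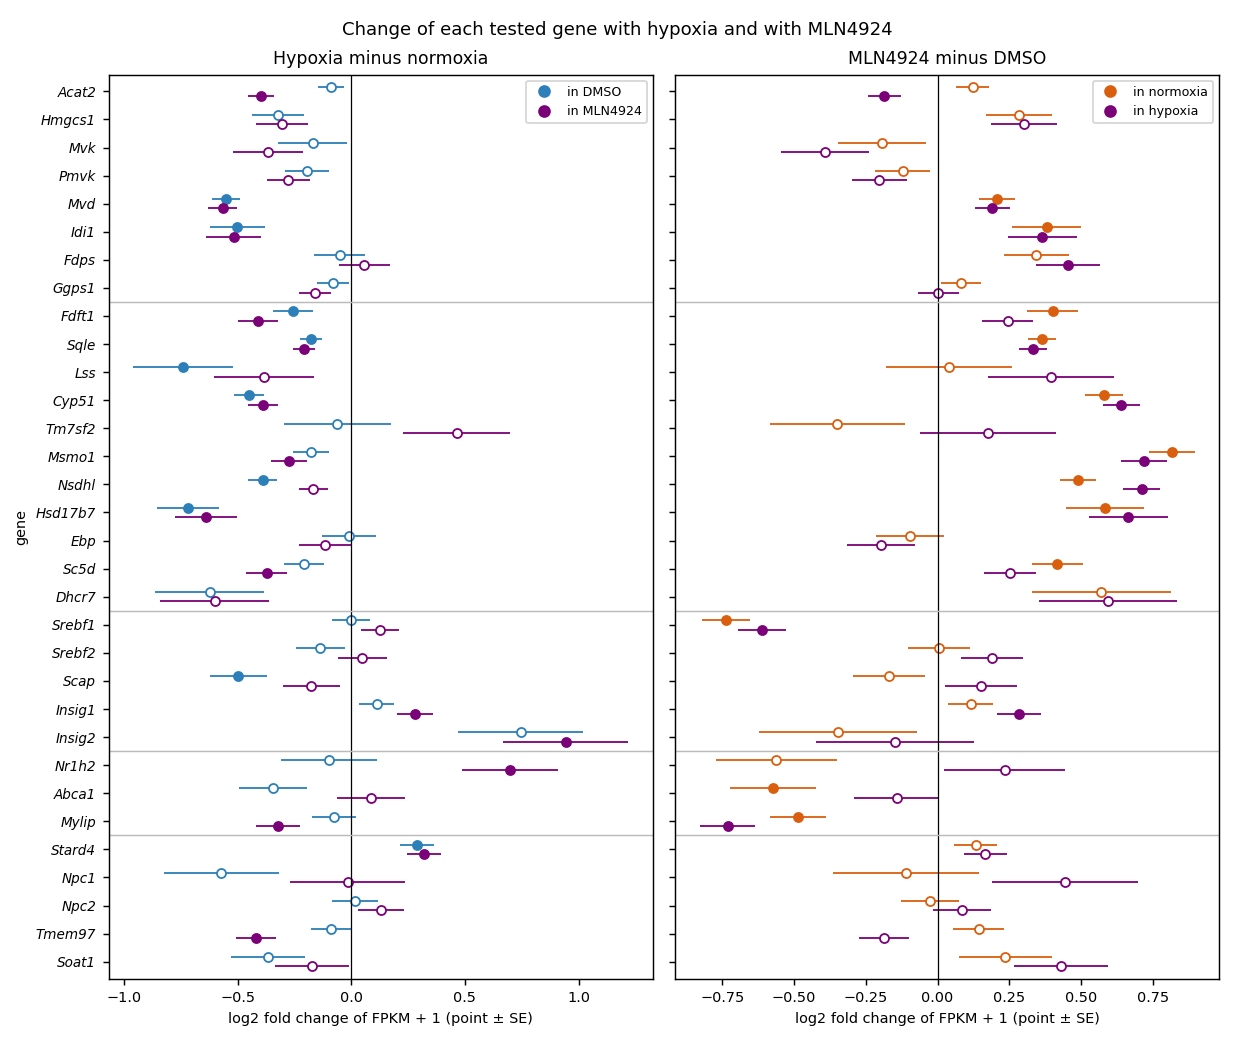
Log2 fold change of FPKM + 1 with its standard error for each of the 32 tested genes, hypoxia minus normoxia on the left and MLN4924 minus DMSO on the right, with filled points for adjusted p under 0.05 and grey lines between role groups (enzymes to Ggps1, sterol branch to Dhcr7, SREBP control to Insig2, LXR to Mylip, traffic and storage). The enzyme rows lie mostly left of 0 with hypoxia and right of 0 with MLN4924, and Srebf1 (-0.74 and -0.61) and Mylip (-0.49 and -0.73) lie left of 0 with MLN4924.

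Among the 8 enzymes of the mevalonate and isoprenoid arm, 2 fell with hypoxia in DMSO and 3 under MLN4924, and 0 rose. Of all tested genes 19.4% and 16.5% fell. With MLN4924, 2 of the 8 rose and 0 fell in normoxia, against 9.33% and 10.7% of all tested genes. In hypoxia 3 rose and 1 fell, against 12.2% and 13.3%. Mvd, which decarboxylates mevalonate diphosphate, read 23.64, 23.6 and 22.07 FPKM in DMSO normoxia, 15.72, 15.14 and 15.47 in DMSO hypoxia, 25.78, 29.18 and 25.58 in MLN4924 normoxia, and 17.86, 17.78 and 17.68 in MLN4924 hypoxia. The 6 hypoxic libraries all lay below the 6 normoxic ones, and within each oxygen level the MLN4924 libraries lay above those of DMSO. The fall with hypoxia was -0.55 ± 0.06 (SE) log2 in DMSO (adjusted p = 1e-04, limma) and -0.57 ± 0.06 under MLN4924 (adjusted p = 0.000113), that is 0.682 and 0.675 of the normoxic level on the FPKM + 1 scale. The rises with MLN4924 were small, 0.21 ± 0.06 in normoxia (adjusted p = 0.0397) and 0.19 ± 0.06 in hypoxia (adjusted p = 0.0453), and neither held throughout. The first was lost without any one library outside DMSO hypoxia (9 libraries, adjusted p up to 0.148), and the second without any one library other than DMSO hypoxia replicate 1 and MLN4924 normoxia replicate 2 (10 libraries, adjusted p up to 0.154).

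Idi1, the isomerase that makes dimethylallyl diphosphate, read 38.94, 37.94 and 37.7 FPKM in DMSO normoxia, 33.99, 23.03 and 24.23 in DMSO hypoxia, 51.43, 47.91 and 50.78 in MLN4924 normoxia, and 32.39, 34.39 and 37.28 in MLN4924 hypoxia. MLN4924 normoxia stood above all other groups, and DMSO hypoxia replicate 1 lay well above its partners. Idi1 fell with hypoxia by 0.50 ± 0.12 log2 in DMSO (adjusted p = 0.00958) and by 0.52 ± 0.12 under MLN4924 (adjusted p = 0.00933). Idi1 kept the fall under MLN4924 in all 18 alternative settings but not that in DMSO. Its rises with MLN4924, 0.38 ± 0.12 in normoxia and 0.36 ± 0.12 in hypoxia, passed narrowly (adjusted p = 0.0494 and 0.0491) with calls lost without any one library outside DMSO hypoxia (9 libraries, adjusted p up to 0.132) and without any one other than DMSO hypoxia replicate 1 (11 libraries, adjusted p up to 0.188). Without DMSO hypoxia replicate 1 the rise in hypoxia was 0.53 (adjusted p = 0.000134).

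Fdps makes farnesyl diphosphate, the branch point between sterols and the other isoprenoids. It read 155.04, 150.51 and 161.66 FPKM in DMSO normoxia, 189.41, 134.45 and 133.06 in DMSO hypoxia, 194.3, 203.93 and 195.62 in MLN4924 normoxia, and 207.17, 201.9 and 209.11 in MLN4924 hypoxia. The 6 MLN4924 libraries lay above all 6 DMSO libraries, and DMSO hypoxia replicate 1 lay above the DMSO normoxia range while its 2 partners lay below it. With MLN4924 it rose in hypoxia by 0.45 ± 0.11 log2 (adjusted p = 0.0143), and in normoxia the difference was 0.34 ± 0.11 (adjusted p = 0.0548). The call in hypoxia did not hold in all 18 alternative settings. Hypoxia gave -0.05 ± 0.11 in DMSO (adjusted p = 0.755), and -0.22 (adjusted p = 0.00123) without DMSO hypoxia replicate 1. The annotated exons of Fdps share 77.4% of their length with Gm43738 on the same strand, so its level rests on how reads were divided between them.

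Of the other 5 enzymes of this arm, 1, Acat2, passed a single-factor contrast. Acat2, the cytosolic thiolase at the head of the pathway, read 55.98, 60.6 and 60.82 FPKM in DMSO normoxia, 59.64, 54.93 and 52.25 in DMSO hypoxia, 64.13, 64.34 and 64.79 in MLN4924 normoxia, and 47.39, 50.24 and 48.59 in MLN4924 hypoxia. MLN4924 hypoxia lay below every other library. Acat2 fell with hypoxia under MLN4924 by 0.40 ± 0.06 log2 (adjusted p = 0.000689), while hypoxia in DMSO gave -0.09 ± 0.06 (adjusted p = 0.267). Its fall with MLN4924 in hypoxia, -0.18 ± 0.06 (adjusted p = 0.0401), was lost without any one library other than DMSO normoxia replicate 1 and DMSO hypoxia replicates 1 and 3 (9 libraries, adjusted p up to 0.181 over the alternatives). Mvk, mevalonate kinase, read 10.05, 10.57 and 7.78 FPKM in DMSO normoxia, 10.19, 8.12 and 6.72 in DMSO hypoxia, 7.13, 8.33 and 8.89 in MLN4924 normoxia, and 5.66, 6.84 and 5.69 in MLN4924 hypoxia. MLN4924 hypoxia lay below both normoxic groups and overlapped DMSO hypoxia, and the other 3 groups overlapped one another. Mvk passed no single-factor contrast. Hmgcs1, which makes HMG-CoA, averaged 35.6, 28.4, 43.5 and 35.1 FPKM in the same group order, with differences of -0.32 ± 0.11 for hypoxia in DMSO (adjusted p = 0.0525) and 0.28 ± 0.11 for MLN4924 in normoxia (adjusted p = 0.113). Without DMSO hypoxia replicate 1 these were -0.44 (adjusted p = 0.00555) and 0.28 (adjusted p = 0.0302). Pmvk and Ggps1, which phosphorylates phosphomevalonate and makes geranylgeranyl diphosphate respectively, passed none of the 4 single-factor contrasts, with changes between -0.28 and 0.08.

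**Figure D3:**
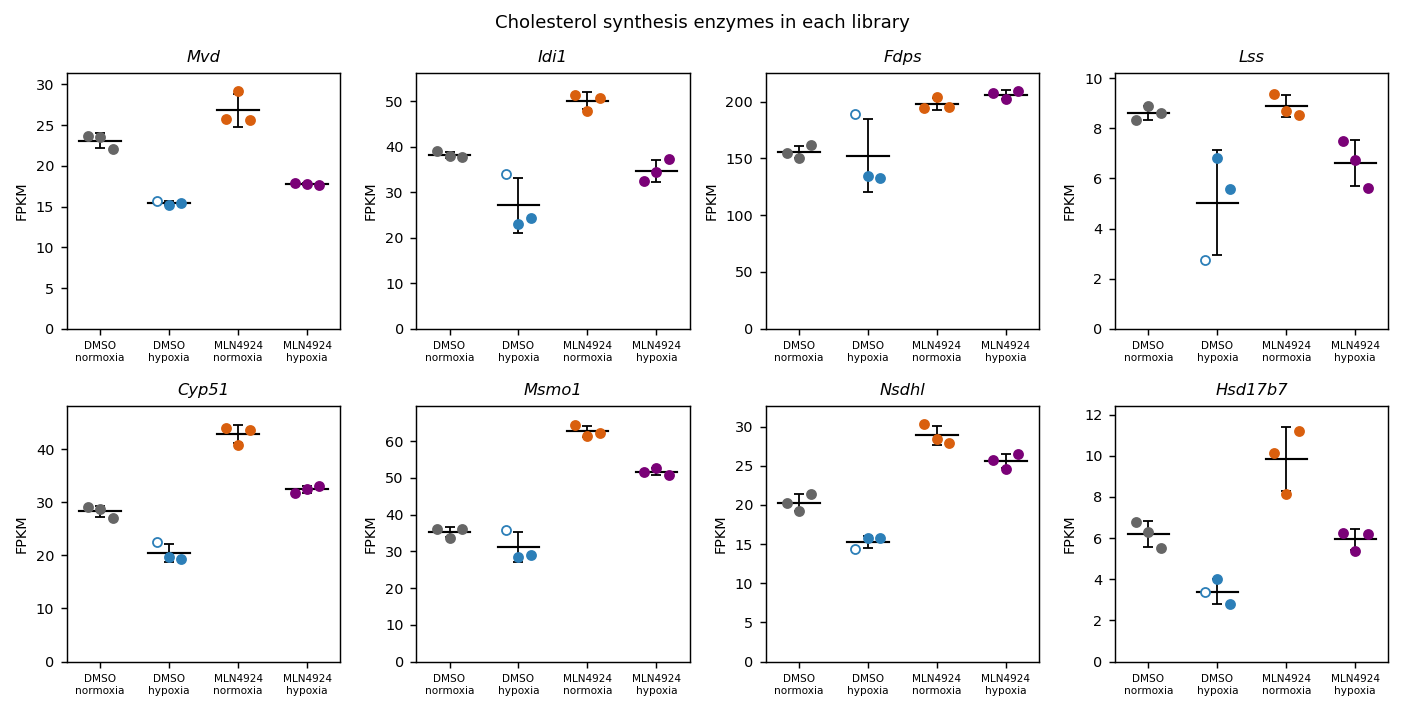
FPKM of 8 synthesis enzymes in each of the 12 libraries, with the mean as a bar and the SD as whiskers (3 libraries a group); the open circle is DMSO hypoxia replicate 1. Cyp51, Mvd, Idi1 and Hsd17b7 have their lowest mean in DMSO hypoxia and their highest in MLN4924 normoxia, and the open circle lies apart for Idi1 (33.99), Fdps (189.41) and Lss (2.74).

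The sterol branch made up 11 of the 19 enzymes. Of these 11, 6 fell with hypoxia in DMSO and 6 under MLN4924, where 19.4% and 16.5% of all tested genes fell. With MLN4924, 7 of the 11 rose in normoxia and 5 in hypoxia, where 9.33% and 12.2% of all tested genes rose. In these contrasts 0 of the 11 passed in the opposite direction (limma). Msmo1, the sterol C4-methyl oxidase, read 35.99, 33.64 and 35.97 FPKM in DMSO normoxia, 35.92, 28.55 and 28.97 in DMSO hypoxia, 64.39, 61.51 and 62.24 in MLN4924 normoxia, and 51.66, 52.63 and 50.73 in MLN4924 hypoxia. All 6 MLN4924 libraries lay above all 6 DMSO libraries, and in normoxia the groups differed by far more than their spread. Msmo1 rose with MLN4924 by 0.82 ± 0.08 log2 in normoxia (1.76-fold, adjusted p = 6.82e-05) and by 0.72 ± 0.08 in hypoxia (1.65-fold, adjusted p = 0.00015). With hypoxia it fell by 0.27 ± 0.08 under MLN4924 (adjusted p = 0.026), a call lost without any of the 6 libraries compared (adjusted p up to 0.0857), and in DMSO the difference was -0.18 ± 0.08 (adjusted p = 0.109), or -0.28 without DMSO hypoxia replicate 1 (adjusted p = 0.000541).

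Cyp51, lanosterol demethylase, read 29.03, 28.81 and 27.08 FPKM in DMSO normoxia, 22.45, 19.77 and 19.26 in DMSO hypoxia, 43.93, 40.81 and 43.65 in MLN4924 normoxia, and 31.72, 32.43 and 33.14 in MLN4924 hypoxia. No library of any group overlapped another group. It fell with hypoxia by 0.45 ± 0.07 log2 in DMSO (adjusted p = 0.000527) and 0.39 ± 0.07 under MLN4924 (adjusted p = 0.00154), and rose with MLN4924 by 0.58 ± 0.07 in normoxia (adjusted p = 0.000182) and 0.64 ± 0.07 in hypoxia (adjusted p = 9.28e-05). Nsdhl, the C4 decarboxylating dehydrogenase, read 20.24, 19.28 and 21.42 FPKM in DMSO normoxia, 14.36, 15.72 and 15.74 in DMSO hypoxia, 30.29, 28.46 and 27.93 in MLN4924 normoxia, and 25.77, 24.64 and 26.45 in MLN4924 hypoxia. Its 4 groups did not overlap either. Nsdhl rose with MLN4924 by 0.49 ± 0.06 in normoxia (adjusted p = 0.00042) and 0.71 ± 0.06 in hypoxia (adjusted p = 4.18e-05), and fell with hypoxia in DMSO by 0.39 ± 0.06 (adjusted p = 0.0011). Under MLN4924 the hypoxic difference was -0.17 ± 0.06 (adjusted p = 0.0756), or adjusted p = 0.0246 without DMSO hypoxia replicate 1.

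Hsd17b7, the 3-ketosteroid reductase of the same demethylation complex, read 6.79, 6.29 and 5.54 FPKM in DMSO normoxia, 3.39, 4.01 and 2.78 in DMSO hypoxia, 10.14, 8.16 and 11.22 in MLN4924 normoxia, and 6.24, 5.35 and 6.2 in MLN4924 hypoxia. DMSO hypoxia was lowest, MLN4924 normoxia highest, and DMSO normoxia and MLN4924 hypoxia overlapped. Hsd17b7 fell with hypoxia by 0.72 ± 0.14 log2 in DMSO (adjusted p = 0.00268) and 0.64 ± 0.14 under MLN4924 (adjusted p = 0.00602), and rose with MLN4924 by 0.66 ± 0.14 in hypoxia (adjusted p = 0.00552). Its rise in normoxia, 0.58 ± 0.14 (adjusted p = 0.0131), was lost without DMSO normoxia replicate 3 or MLN4924 normoxia replicate 3 (adjusted p up to 0.057). Lss, which closes the ring to lanosterol, read 8.35, 8.9 and 8.6 FPKM in DMSO normoxia, 2.74, 6.8 and 5.56 in DMSO hypoxia, 9.38, 8.71 and 8.55 in MLN4924 normoxia, and 7.48, 6.73 and 5.63 in MLN4924 hypoxia. All hypoxic libraries lay below all normoxic ones. Lss fell with hypoxia in DMSO by 0.74 ± 0.22 (adjusted p = 0.0263), by 0.43 without DMSO hypoxia replicate 1 (adjusted p = 0.0131), and lost the call without DMSO normoxia replicate 1, 2 or 3 (adjusted p up to 0.11).

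The remaining sterol branch genes divided. Sqle, squalene epoxidase, averaged 50.6 ± 1.02, 44.6 ± 1.17, 65.4 ± 2.23 and 56.5 ± 1.99 FPKM (SD, n = 3) in DMSO normoxia, DMSO hypoxia, MLN4924 normoxia and MLN4924 hypoxia, and it passed all 4 single-factor contrasts, from -0.21 to 0.36 log2. Its fall with hypoxia in DMSO, -0.18 ± 0.05 (adjusted p = 0.0169), was lost without DMSO normoxia replicate 2 or 3 (adjusted p up to 0.101 over the alternatives). Fdft1, squalene synthase, averaged 16.3 ± 1.37, 13.5 ± 1.29, 21.8 ± 1.62 and 16.1 ± 0.642 FPKM. Fdft1 rose with MLN4924 in normoxia by 0.40 ± 0.09 (adjusted p = 0.00948), and its fall with hypoxia in DMSO, -0.25 ± 0.09 (adjusted p = 0.0475), was lost without any one library other than DMSO normoxia replicate 1, DMSO hypoxia replicate 3 and MLN4924 normoxia replicate 3 (9 libraries, adjusted p up to 0.149 over the alternatives). Without DMSO hypoxia replicate 1 the Fdft1 value was -0.20 (adjusted p = 0.0971). Sc5d, the C5 desaturase, rose with MLN4924 in normoxia by 0.42 ± 0.09 (adjusted p = 0.00813) and fell with hypoxia under MLN4924 by 0.37 ± 0.09 (adjusted p = 0.0106). Dhcr7, which reduces 7-dehydrocholesterol, showed differences of similar size, -0.62 ± 0.24 for hypoxia in DMSO and 0.57 ± 0.24 for MLN4924 in normoxia, that missed the threshold (adjusted p = 0.0702 and 0.128). Ebp, the sterol isomerase, and Tm7sf2, a sterol reductase listed at 0.55 to 2.22 FPKM, passed none of these contrasts. On the annotation used for lengths, 20.9% of the exonic length of Fdft1 lies opposite Ctsb, and whether the libraries kept strand is not given in the sources used here.

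The 5 control genes did not follow the enzymes as a group. Srebf2 read 76.96, 76.07 and 77.26 FPKM in DMSO normoxia, 55.82, 75.92 and 79.99 in DMSO hypoxia, 76.45, 76.79 and 77.73 in MLN4924 normoxia, and 79.02, 76.59 and 83.44 in MLN4924 hypoxia. Apart from DMSO hypoxia replicate 1, its 11 libraries spanned a narrow range, and the 4 single-factor differences ran from -0.14 to 0.19 log2, each with an SE of 0.11 (adjusted p from 0.229 to 0.985). Srebf1 read 29.33, 28.49 and 29.22 FPKM in DMSO normoxia, 27.59, 29.76 and 29.71 in DMSO hypoxia, 16.07, 18.97 and 16.16 in MLN4924 normoxia, and 16.78, 20.44 and 18.93 in MLN4924 hypoxia. All 6 MLN4924 libraries lay below all 6 DMSO libraries, and the hypoxic and normoxic libraries overlapped. Srebf1 fell with MLN4924 by 0.74 ± 0.08 in normoxia (adjusted p = 0.000184) and by 0.61 ± 0.08 in hypoxia (adjusted p = 0.000538), in contrasts where 9 and 8 of the 19 enzymes rose. Hypoxia gave a difference of 0.13 ± 0.08 under MLN4924 (adjusted p = 0.304) and almost none in DMSO (adjusted p = 0.998).

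Scap, the escort of SREBPs, read 31.07, 33.47 and 30.8 FPKM in DMSO normoxia, 17.75, 26.24 and 23.5 in DMSO hypoxia, 28.98, 28.36 and 27.11 in MLN4924 normoxia, and 27.95, 22.24 and 24.53 in MLN4924 hypoxia. DMSO normoxia lay above all other groups. Scap fell with hypoxia in DMSO by 0.50 ± 0.13 log2 (adjusted p = 0.0125, or 0.0628 with only these 2 groups fitted), by 0.34 without DMSO hypoxia replicate 1 (adjusted p = 0.0121), and passed no other single-factor contrast. Insig1, itself induced by SREBPs, read 39.43, 39.89 and 40.66 FPKM in DMSO normoxia, 45.72, 39.3 and 45.22 in DMSO hypoxia, 44.84, 41.5 and 43.94 in MLN4924 normoxia, and 47.62, 56.69 and 54.87 in MLN4924 hypoxia. MLN4924 hypoxia was the highest group, with no overlap, and the middle groups overlapped each other. Insig1 rose with MLN4924 in hypoxia by 0.28 ± 0.08 (adjusted p = 0.0229) and with hypoxia under MLN4924 by 0.28 ± 0.08 (adjusted p = 0.0215). Both calls were lost without MLN4924 hypoxia replicate 2 or 3, the first also without DMSO hypoxia replicate 2 and the second without MLN4924 normoxia replicate 2 or 3, with adjusted p up to 0.131 and 0.0861 over the alternatives. Insig2, the other INSIG gene, read 14.17, 12.61 and 12.68 FPKM in DMSO normoxia, 27.01, 17.26 and 25.06 in DMSO hypoxia, 16.64, 6.12 and 9.96 in MLN4924 normoxia, and 20.53, 18.25 and 22.64 in MLN4924 hypoxia. Every hypoxic library lay above every normoxic one, with a wide spread. Insig2 rose with hypoxia under MLN4924 by 0.94 ± 0.27 (1.92-fold, adjusted p = 0.0268), a call lost without MLN4924 normoxia replicate 2 or 3 or any MLN4924 hypoxia library (adjusted p up to 0.0843 over the alternatives), and in DMSO the difference was 0.75 ± 0.27 (adjusted p = 0.0596).

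**Figure D4:**
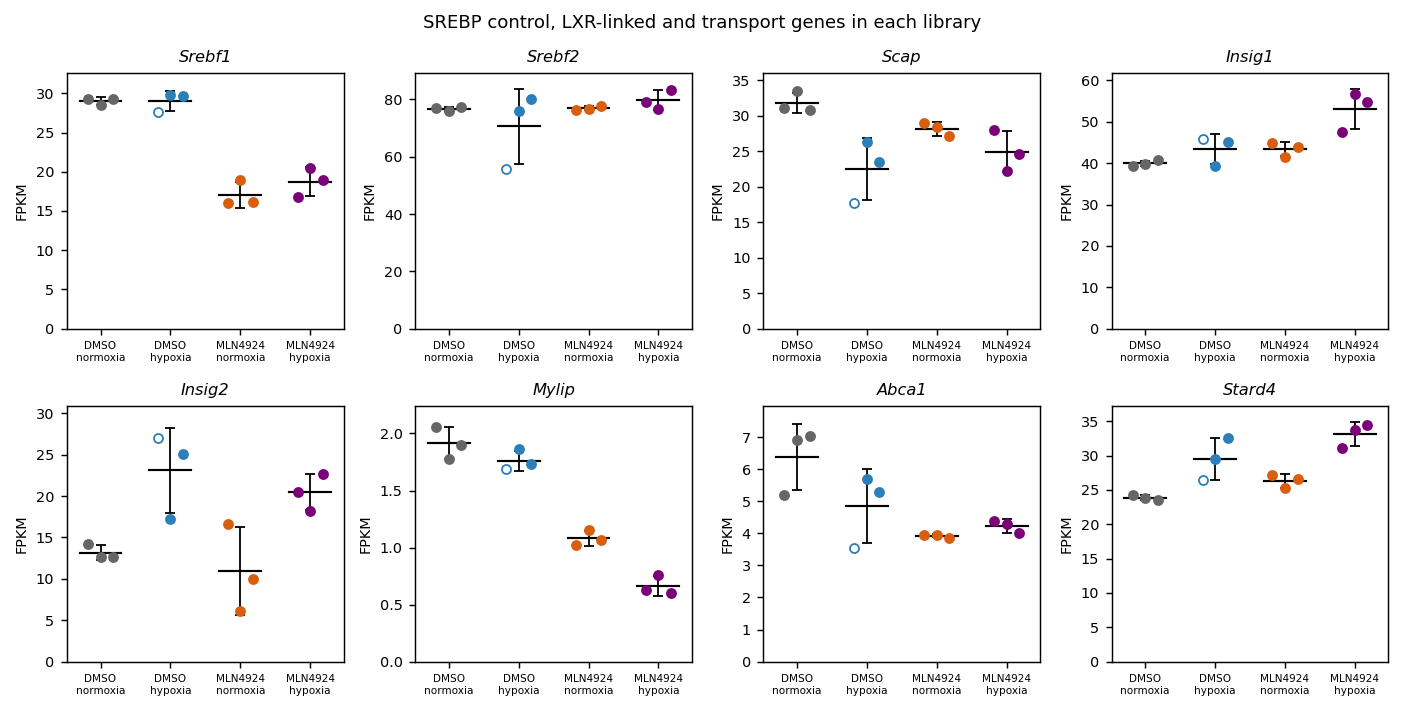
FPKM of 5 SREBP control genes and of Mylip, Abca1 and Stard4 in each of the 12 libraries, with the mean as a bar and the SD as whiskers (3 libraries a group); the open circle is DMSO hypoxia replicate 1. Srebf1 and Mylip are lower in all MLN4924 libraries than in all DMSO libraries, Insig2 is higher in all hypoxic libraries than in all normoxic ones, and Srebf2 lies between 75.92 and 83.44 FPKM outside the open circle at 55.82.

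Among the 3 tested genes of LXR and sterol efflux, 2 fell with MLN4924 in normoxia and 1 in hypoxia. Of all tested genes 10.7% and 13.3% fell in these contrasts. With hypoxia 0 of the 3 passed in DMSO (limma). Under MLN4924 1 rose and 1 fell, against 11.7% and 16.5% of all tested genes. A list of 3 genes is too short to weigh against such shares. Mylip encodes the LXR-induced ligase that marks lipoprotein receptors for degradation. It read 2.06, 1.78 and 1.9 FPKM in DMSO normoxia, 1.69, 1.86 and 1.73 in DMSO hypoxia, 1.02, 1.15 and 1.07 in MLN4924 normoxia, and 0.63, 0.76 and 0.6 in MLN4924 hypoxia. The MLN4924 groups lay below DMSO and MLN4924 hypoxia lay below MLN4924 normoxia, with no overlap. Mylip fell with MLN4924 by 0.49 ± 0.10 log2 in normoxia (adjusted p = 0.00562) and 0.73 ± 0.10 in hypoxia (adjusted p = 0.000441), values that the added 1 FPKM compresses at this level. Its fall with hypoxia under MLN4924, -0.32 ± 0.10 (adjusted p = 0.0302), was lost without any MLN4924 normoxia library or MLN4924 hypoxia replicate 1 or 3 (adjusted p up to 0.0936 over the alternatives). Abca1, the efflux transporter that loads apolipoprotein A-I, read 5.2, 6.91 and 7.03 FPKM in DMSO normoxia, 3.55, 5.71 and 5.29 in DMSO hypoxia, 3.96, 3.95 and 3.87 in MLN4924 normoxia, and 4.39, 4.3 and 4 in MLN4924 hypoxia. DMSO normoxia lay above both MLN4924 groups and overlapped DMSO hypoxia. Abca1 fell with MLN4924 in normoxia by 0.57 ± 0.15 (adjusted p = 0.0216), a call lost without any MLN4924 normoxia library or without DMSO normoxia replicate 2 or 3 (adjusted p up to 0.0822). Nr1h2, the gene of LXR-beta, read 12.41, 13.25 and 15.67 FPKM in DMSO normoxia, 12.85, 13.14 and 12.32 in DMSO hypoxia, 6.02, 12.64 and 9.35 in MLN4924 normoxia, and 12.56, 18.3 and 15.21 in MLN4924 hypoxia. MLN4924 normoxia was widely spread. Nr1h2 rose with hypoxia under MLN4924 by 0.70 ± 0.21 (adjusted p = 0.0311), a call lost without MLN4924 normoxia replicate 1 or 3 or MLN4924 hypoxia replicate 2 or 3 (adjusted p up to 0.116 over the alternatives), and it has a processed pseudogene copy, Nr1h2-ps, that could share its reads.

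In traffic and storage, Stard4 rose with hypoxia in both treatments. Stard4, a cytosolic sterol carrier, read 24.24, 23.9 and 23.56 FPKM in DMSO normoxia, 26.4, 29.51 and 32.57 in DMSO hypoxia, 27.12, 25.23 and 26.59 in MLN4924 normoxia, and 31.15, 33.77 and 34.49 in MLN4924 hypoxia. Within each treatment the hypoxic libraries lay above the normoxic ones. The rises were 0.29 ± 0.08 log2 in DMSO (adjusted p = 0.0146) and 0.32 ± 0.08 under MLN4924 (adjusted p = 0.00959), opposite in sign to the changes of the enzymes. Stard4 kept the call under MLN4924 in all 18 alternative settings but not that in DMSO. Tmem97, the sigma-2 receptor, an endoplasmic reticulum protein tied to NPC1, read 77.41, 87.26 and 84.97 FPKM in DMSO normoxia, 91.31, 72.34 and 71.74 in DMSO hypoxia, 89.56, 91.61 and 94.53 in MLN4924 normoxia, and 66.17, 69.79 and 69.35 in MLN4924 hypoxia. MLN4924 hypoxia was the lowest group, and DMSO hypoxia replicate 1 lay above its partners and above DMSO normoxia. Tmem97 fell with hypoxia under MLN4924 by 0.42 ± 0.09 (adjusted p = 0.00529), and in DMSO the difference was -0.09 ± 0.09 (adjusted p = 0.45), or -0.20 without DMSO hypoxia replicate 1 (adjusted p = 0.0111). Npc1, the lysosomal cholesterol exporter, read 6.3 FPKM in DMSO hypoxia replicate 1 and 15.25 to 18.32 in the other 11 libraries. Npc1, Npc2, its soluble partner, and Soat1, which esterifies cholesterol for storage, passed none of the single-factor contrasts, with adjusted p of at least 0.0786. Npc1 passed without DMSO hypoxia replicate 1 for hypoxia in DMSO (-0.17, adjusted p = 0.0268) and Soat1 for MLN4924 in normoxia (0.24, adjusted p = 0.0172). Npc2 passed without that library for MLN4924 in hypoxia (0.22, adjusted p = 0.0089) and for hypoxia under MLN4924 (0.13, adjusted p = 0.047).

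Against untreated cells, 5 of the 19 enzymes rose and 4 fell with MLN4924 and hypoxia together, where 14.6% and 21.2% of all tested genes did. Falls among the enzymes were thus about as frequent as over all tested genes. Over the 32 genes 7 rose and 8 fell, with a median of -0.03 beside -0.07 over all tested genes. The groups did not overlap for 8 genes that lay higher and 13 that lay lower, against 23.8% and 34.2% of tested genes. Of the sterol branch, 4 enzymes rose and 0 fell, Msmo1 (0.54 ± 0.08), Nsdhl (0.32 ± 0.06), Cyp51 (0.19 ± 0.07) and Sqle (0.15 ± 0.05). Of the earlier arm, 4 fell, Mvk (-0.56 ± 0.15), Pmvk (-0.40 ± 0.10), Mvd (-0.36 ± 0.06) and Acat2 (-0.27 ± 0.06), and Fdps rose (0.40 ± 0.11). The other rises were Stard4 (0.45 ± 0.08) and Insig1 (0.40 ± 0.08), and the other falls Mylip (-0.81 ± 0.10), Srebf1 (-0.61 ± 0.08), Abca1 (-0.49 ± 0.15) and Tmem97 (-0.28 ± 0.09), all log2 ± SE with adjusted p from 0.000112 to 0.0433 by limma. This contrast shares its DMSO normoxia and MLN4924 hypoxia libraries with those above and is not separate evidence. Cyp51 lost the call without any one library outside DMSO hypoxia (adjusted p up to 0.144), Sqle without any DMSO normoxia library or MLN4924 hypoxia replicate 1 or 2 (up to 0.109), and Abca1 and Tmem97 without DMSO normoxia replicate 2 or 3 or any MLN4924 hypoxia library (up to 0.0938 and 0.109). Mvk lost it without DMSO normoxia replicate 1 or 2 or MLN4924 hypoxia replicate 1 or 3 (up to 0.0636), and Fdps without DMSO normoxia replicate 2 or MLN4924 hypoxia replicate 3 (up to 0.0582). Without DMSO normoxia replicate 2, 4 genes rose and 5 fell. Over all tested genes 1445 then rose and 2107 fell, in place of 1794 and 2614. Without MLN4924 hypoxia replicate 3, 5 genes fell, with 2166 falls over all tested genes. Without DMSO hypoxia replicate 1, 7 rose and 12 fell, against 20.2% and 29.4% of all tested genes.

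The effect of hypoxia was then compared between MLN4924 and DMSO as an interaction. None of the 32 genes passed (0 rose and 0 fell, limma), where 0.958% and 0.926% of all tested genes did, and 4 of the 32 had an unadjusted p under 0.05. The smallest adjusted p was 0.101, for Acat2 (-0.31 ± 0.08 log2), and the largest differences in either direction were 0.80 ± 0.30 for Nr1h2 (adjusted p = 0.251) and -0.33 ± 0.12 for Tmem97 (adjusted p = 0.253). For Cyp51, Mvd and Idi1 the differences were 0.06 ± 0.09, -0.02 ± 0.09 and -0.02 ± 0.17, and a p above the threshold does not show that the effects were alike. Without DMSO hypoxia replicate 1, Fdps passed with 0.28 (adjusted p = 0.0119) and Acat2 with -0.26 (adjusted p = 0.0416).

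The neighbouring pathways were read from lists chosen by pathway. Their counts stand beside the shares of all tested genes that rose and fell, 13.8% and 19.4% with hypoxia in DMSO, 11.7% and 16.5% with hypoxia under MLN4924, 9.33% and 10.7% with MLN4924 in normoxia, and 12.2% and 13.3% with MLN4924 in hypoxia. Of 21 genes of SREBP processing and sterol-regulated degradation at the endoplasmic reticulum, 3 rose and 6 fell with hypoxia in DMSO, 2 rose and 5 fell under MLN4924, and with MLN4924 1 rose and 6 fell in normoxia and 2 and 4 in hypoxia. With hypoxia in DMSO the share of this list that rose was close to that of all tested genes. The largest change by MLN4924 was in Rnf145, an LXR-induced ubiquitin ligase of that membrane, which averaged 51.1 ± 0.603 FPKM in DMSO normoxia, 61.5 ± 2.66 in DMSO hypoxia, 24.9 ± 1.21 in MLN4924 normoxia and 25.6 ± 0.75 in MLN4924 hypoxia (SD, n = 3). Rnf145 fell with MLN4924 by 1.01 ± 0.05 log2 in normoxia (adjusted p = 1.25e-06) and 1.23 ± 0.05 in hypoxia (adjusted p = 3.29e-07). Sec24a, a cargo adaptor of the vesicles that carry SREBPs to the Golgi, fell with hypoxia in DMSO (adjusted p = 0.000242), from 10.4 ± 0.27 to 6.98 ± 0.356 FPKM.

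Of 16 genes of fatty acid synthesis and desaturation, the SREBP-1 branch, 3 rose and 7 fell with hypoxia in DMSO, 5 rose and 3 fell under MLN4924, and with MLN4924 0 rose and 6 fell in normoxia and 2 and 3 in hypoxia. Over all tested genes, 13.8% rose and 19.4% fell in the first of these contrasts and 9.33% and 10.7% with MLN4924 in normoxia. The median change with MLN4924 in normoxia was -0.25 log2 for these 16 genes, 0.34 for the 19 cholesterol enzymes and -0.03 over all tested genes. In hypoxia the medians were 0.10, 0.30 and -0.01, with 10 of the 16 genes positive. Scd1, the stearoyl-CoA desaturase, fell with MLN4924 in normoxia from 304.3 ± 7.57 to 178.6 ± 0.642 FPKM (adjusted p = 5.47e-05), and Acsl3, an acyl-CoA synthetase, fell from 49.4 ± 0.786 to 30.4 ± 1.34 FPKM (adjusted p = 0.00015). Elovl6, a fatty acid elongase, fell with hypoxia in DMSO from 16.5 ± 0.785 to 6.01 ± 1.37 FPKM (adjusted p = 3.18e-05) and under MLN4924 from 14.7 ± 0.0839 to 6.50 ± 0.316 (adjusted p = 0.000184). Acss2, which makes acetyl-CoA from acetate, rose with hypoxia in both treatments, from 7.77 ± 1.11 to 12.2 ± 0.135 and from 5.94 ± 0.389 to 13.5 ± 0.568 FPKM (adjusted p = 0.000852 and 2.76e-05).

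Of 20 tested genes of sterol transfer and lysosomal lipid handling, 4 rose and 6 fell with hypoxia in DMSO, 5 rose and 3 fell under MLN4924, and with MLN4924 0 rose and 3 fell in normoxia and 2 and 2 in hypoxia. With MLN4924 in hypoxia these counts lay below the 12.2% and 13.3% of all tested genes. Nceh1, a cholesteryl ester hydrolase, fell with hypoxia in DMSO from 11.9 ± 0.344 to 6.98 ± 0.484 FPKM (adjusted p = 8.73e-05). In that contrast Osbpl5 fell by 0.89 log2 (adjusted p = 0.000778). Vapa rose by 0.74 (adjusted p = 0.00988), or by 0.47 without DMSO hypoxia replicate 1. With hypoxia under MLN4924, Stard5 rose by 1.28 (adjusted p = 4.53e-06), Osbpl9 rose by 0.75 (adjusted p = 0.000177) and Stard3 fell by 0.55 (adjusted p = 0.00148). Of the 5 tested oxysterol enzymes and LXR partners, 0 rose and 3 fell with hypoxia in DMSO, and 1 rose and 1 fell under MLN4924. With MLN4924 0 rose and 3 fell in normoxia, against 9.33% and 10.7% of all tested genes, and 0 rose and 2 fell in hypoxia. Hsd3b7, an oxysterol and bile acid dehydrogenase, fell with MLN4924 in normoxia from 16.8 ± 0.591 to 7.09 ± 0.716 FPKM (adjusted p = 2.67e-05). With hypoxia under MLN4924 Hsd3b7 rose to 12.5 ± 1.18 FPKM (adjusted p = 0.000319). Rxra, the partner receptor of LXRs, fell with hypoxia in DMSO from 10.7 ± 0.368 to 5.63 ± 0.558 FPKM (adjusted p = 7.41e-05) and under MLN4924 from 7.70 ± 0.135 to 3.61 ± 0.392 (adjusted p = 4.94e-05). Of the 15 genes of the isoprenoid branches, 3 rose and 4 fell with hypoxia in DMSO, 1 rose and 5 fell under MLN4924, and with MLN4924 0 passed in normoxia (limma, 4 at an unadjusted p under 0.05) and 2 fell in hypoxia. The shares over all tested genes were 13.8% and 19.4% with hypoxia in DMSO. Dolk, dolichol kinase, fell with hypoxia in DMSO from 13.1 ± 0.548 to 8.90 ± 1.17 FPKM (adjusted p = 0.00612), and Fnta, the alpha subunit shared by the protein prenyl transferases, fell with MLN4924 in hypoxia from 31.0 ± 3.96 to 21.0 ± 2.45 FPKM (adjusted p = 0.00338).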

How the data were processed

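RNA of 12 mouse GC-2 cultures was sequenced as paired 150 nt reads on a NovaSeq. The deposited table holds FPKM per gene symbol, which the authors made from those reads, and the submitters' processing notes name fastp, STAR, RSEM 1.3.3 and mm39 without role or order. The annotation and strandedness are not given in the sources used here. FPKM keeps no counts, so depth and counting error are unknown. Groups came from the titles, and 0 pairs of libraries were identical. Genes at 1 FPKM or more in at least 3 of 12 libraries were tested on log2(FPKM + 1), over all 4 groups, with limma 3.58.1 (trend, two-sided) in R 4.3.3 and Benjamini-Hochberg adjustment at 0.05 over all tested genes. Every adjusted p printed is limma's, each fold is on the FPKM + 1 scale, which understates changes of low genes, and ± after a log2 value is its SE. The code was tested on simulated data. An exact permutation test of 3 against 3 cannot go below 0.1. Lengths and exon overlaps came from GENCODE M21. Per-library values are given for the 5 SREBP control genes and for up to 4 genes with the largest rise and the largest fall in each contrast. Genes of neighbouring lists are named at an absolute log2 change of at least 0.5, up to 4 per list and contrast. Genes and lists were chosen with earlier results of these data known. In all, 18 alternatives were run: pseudocount 0.1, no filter, median-of-ratios scaling, a fit of only the groups compared, array weights, a replicate block, and each library left out.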

Additional observations from a re-analysis of the deposited data

Results flagged for a closer look

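In the neighbouring pathways, 5 genes differed in their response to hypoxia between MLN4924 and DMSO by the interaction test (limma). They were 3 of the 16 genes of fatty acid synthesis and desaturation and 2 of the 20 of sterol transfer, all with positive values. In the other lists, of 21, 15 and 5 tested genes, 0 passed. Over all tested genes 0.958% rose and 0.926% fell in this test. Stard5, a sterol carrier, averaged 7.80, 11.3, 8.50 and 22.1 FPKM in DMSO normoxia, DMSO hypoxia, MLN4924 normoxia and MLN4924 hypoxia, an interaction of 0.80 ± 0.12 log2 (adjusted p = 0.0106). Osbpl2, an oxysterol-binding protein relative, averaged 22.0, 18.8, 16.97 and 22.5 FPKM, an interaction of 0.60 ± 0.09 (adjusted p = 0.00875), with hypoxia lowering it in DMSO and raising it under MLN4924. Both passed in all 17 alternatives run for the interaction. The lipid desaturases Fads1 (0.63 ± 0.13, adjusted p = 0.0407) and Fads2 (0.39 ± 0.08, adjusted p = 0.0491) and the elongase Elovl5 (0.34 ± 0.07, adjusted p = 0.0384) passed in the full fit but lost the call in 11, 14 and 11 of the 17 alternatives, with adjusted p up to 0.111, 0.139 and 0.107. Those losses came on leaving out any one of 9, 10 and 10 libraries.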

How the results depend on the processing

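Of 4499 gene values recomputed under the alternatives, 4146 stayed on their side of the threshold, 253 lost the call and 100 gained it. Of the 4146, 70 changed sign, all in values that passed neither before nor after, and 0 called values changed sign. The counts of the 32 genes moved by more than 1.5 times as follows. For hypoxia in DMSO, 2 rose in place of 1 with median-of-ratios scaling, 4 fell in place of 9 when only the groups compared were fitted, and 15 fell with array weights. For MLN4924, 14 rose in place of 9 in normoxia with array weights, and 5 in place of 9 in hypoxia when only the groups compared were fitted. For hypoxia under MLN4924, 2 rose in place of 4 with no filter, and in the interaction 1 rose and 1 fell in place of 0 with array weights. Over all tested genes the counts moved too. With array weights 3221 fell with hypoxia in DMSO in place of 2393, and 2098 rose with MLN4924 in normoxia in place of 1149. The interaction then gave 478 rises and 365 falls in place of 118 and 114. With only the groups compared 1319 fell with hypoxia in DMSO, and 631 rose with MLN4924 in hypoxia in place of 1498. With no filter 1304 of 24770 genes rose with hypoxia under MLN4924, in place of 1439 of 12311. The cause of these moves was not tested. Scaling also turned the split over all tested genes from 1700 up and 2393 down to 2078 and 1920 for hypoxia in DMSO, and from 1794 and 2614 to 2229 and 2136 for MLN4924 with hypoxia.

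With each library left out in turn, 1 to 2 genes rose and 6 to 14 fell for hypoxia in DMSO, and 1 to 5 rose and 9 to 16 fell under MLN4924. For MLN4924, 6 to 14 rose and 2 to 4 fell in normoxia, and 6 to 11 rose and 2 to 5 fell in hypoxia. For MLN4924 with hypoxia 4 to 7 rose and 5 to 12 fell, and in the interaction 0 to 1 rose and 0 to 1 fell. Over all tested genes these refits gave 1278 to 1824 rises and 1718 to 2951 falls with hypoxia in DMSO. Under MLN4924 they gave 1063 to 2189 and 1461 to 3042. With MLN4924 there were 771 to 1976 rises and 853 to 2236 falls in normoxia, and 1039 to 2067 and 1097 to 1915 in hypoxia. MLN4924 with hypoxia gave 1431 to 2474 and 2103 to 3598, and the interaction 42 to 408 and 48 to 270. Libraries that moved a count by over 1.5 times were DMSO hypoxia replicate 1 (14 falls with hypoxia in DMSO, 14 rises with MLN4924 in normoxia, 1 rise and 1 fall in the interaction), DMSO hypoxia replicate 2 and MLN4924 normoxia replicates 1 and 2 (2 rises each with hypoxia in DMSO), DMSO hypoxia replicate 3 (5 falls with MLN4924 in hypoxia), DMSO normoxia replicate 2 (4 rises and 5 falls with both exposures), MLN4924 hypoxia replicate 3 (5 falls with both exposures), and MLN4924 normoxia replicate 3 and MLN4924 hypoxia replicates 2 and 3 (1 rise each with hypoxia under MLN4924).

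No pairing by replicate number was seen. Deviations of same-numbered libraries correlated between -0.07 and 0.10 over 18 pairs, and those of other-numbered libraries between -0.09 and 0.10 over 36. Of 12 libraries, 4 correlated best with their own number. With 3 libraries a group these values cannot exclude a pairing. With a replicate block 2 genes rose and 9 fell for hypoxia in DMSO, where 1569 and 2202 of all tested genes did. The other counts stayed within 1.5 times.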
